A study of Mus musculus with 4 samples.

Results

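The shared lineage tags are the 80 barcode sequences that marked cells in both tag libraries of the series. A tag was matched between libraries when the MK and Diff_MK sequences agreed from their first base over the shorter listed length. It was kept when it led at least 1 cell of each library, a leading tag having 3 or more counts and at least 2 times the counts of the next tag in that cell. The matching gave 93 pairs, 82 of them identical in full, which fell into 90 groups. Of these groups 80 led cells in both libraries, 6 led cells in MK only (at most 15 cells), 1 led a single Diff_MK cell and 3 led none. The 80 shared tags correspond to 81 tags of the MK list and 80 of the Diff_MK list, out of 1055 and 154 tags listed, of which 899 and 128 led at least 1 cell.

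Both libraries came from MK, a mouse keratinocyte line grown in E low medium with fetal bovine serum, treated with Dox and sorted for GFP, the fluorescent mark of tagged cells. The groups MK and Diff_MK differ in their labels only by the prefix Diff, which is not spelled out, and each is 1 RNA library with 1 tag library made from the same cells. The clone structure of the line, the time between labelling and harvest, and whether the groups were drawn from a common culture are not given in the sources used here. With 1 library per group there is no replicate check, so no p-value is given, and every interval is an exact 95% interval that covers counting error over cells, UMIs or, for the joins, tags only. Where in the genome the tag construct sits is likewise not given there.

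Lineage tracing by expressed tags works by writing a heritable sequence into the DNA of single cells. All descendants of a labelled cell carry its tag, and the tag is read from RNA together with the transcriptome of each cell. The number of cells with a tag then stands for the size of its lineage in the sampled population. Keratinocytes are the epithelial cells of the epidermis. They divide in a basal layer marked by Krt5 and Krt14 and pass through suprabasal and granular states as they differentiate.

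The tag sequences are shown first because their shared ends and short variable middle are what the matching rests on. All 81 shared MK tags could be read as the join of a left arm of 43 bases to a right arm of 28 bases, most with bases lost at the join and many with extra bases between the arms. The inner ends of the arms, tagggataa on the left and ttatcccta on the right, are reverse complements of each other. The first of these is also one end of the recognition site of I-SceI, a homing endonuclease that cuts DNA, although the labels do not name an enzyme. In the sequences, written 5′ to 3′ as listed, capitals mark inserted bases that belong to neither arm, and a sequence without capitals joins the arms directly. Each name gives the tag's name in the MK list and then in the Diff_MK list.
left arm: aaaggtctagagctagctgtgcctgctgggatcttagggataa
right arm: ttatccctaatagctcaggttttaccgg
The next 6 are the largest shared tags in MK, 5 of which are also among the 10 largest in Diff_MK.
Tag1/Tag3: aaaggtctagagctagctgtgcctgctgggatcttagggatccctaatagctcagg
Tag2/Tag5: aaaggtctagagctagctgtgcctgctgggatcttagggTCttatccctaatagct
Tag3+Tag711/Tag8: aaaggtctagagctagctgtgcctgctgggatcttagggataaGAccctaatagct
Tag4/Tag1: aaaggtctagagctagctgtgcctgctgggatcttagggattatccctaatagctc
Tag5/Tag6: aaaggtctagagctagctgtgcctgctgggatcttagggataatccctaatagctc
Tag6/Tag2: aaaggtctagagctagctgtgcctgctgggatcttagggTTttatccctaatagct
The next 6 had the highest ratio of Diff_MK to MK share among tags with 20 or more cells over both libraries.
Tag843/Tag9: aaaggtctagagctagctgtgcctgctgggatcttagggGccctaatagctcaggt
Tag729/Tag4: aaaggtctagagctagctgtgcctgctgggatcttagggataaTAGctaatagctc
Tag474/Tag31: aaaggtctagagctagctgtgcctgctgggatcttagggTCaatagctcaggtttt
Tag487/Tag33: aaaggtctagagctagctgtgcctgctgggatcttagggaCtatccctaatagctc
Tag208/Tag13: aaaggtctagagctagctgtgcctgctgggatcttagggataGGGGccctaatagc
Tag302/Tag30: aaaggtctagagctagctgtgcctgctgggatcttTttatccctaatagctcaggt
The next 6 had the lowest ratio.
Tag20/Tag141: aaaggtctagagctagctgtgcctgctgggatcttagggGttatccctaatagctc
Tag42/Tag124: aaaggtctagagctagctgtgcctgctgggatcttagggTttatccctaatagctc
Tag7/Tag52: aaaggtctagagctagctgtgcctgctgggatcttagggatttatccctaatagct
Tag25/Tag118: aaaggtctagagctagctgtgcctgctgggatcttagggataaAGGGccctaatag
Tag33/Tag109: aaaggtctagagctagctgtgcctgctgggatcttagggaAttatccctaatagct
Tag37/Tag102: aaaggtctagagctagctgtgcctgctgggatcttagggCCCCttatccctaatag
The last 3 are shared tags listed at fewer than 56 bases in MK, among them the shortest.
Tag50/Tag15: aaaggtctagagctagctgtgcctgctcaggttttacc
Tag17/Tag7: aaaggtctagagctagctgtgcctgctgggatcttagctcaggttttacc
Tag214/Tag60: aaaggtctagagctcaggttttaccg

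RNA cells had to show 1000 genes and no more than 15% mitochondrial UMIs, and 7175 MK and 6912 Diff_MK cells did so. The tag libraries hold 6411 and 6454 cells, all of which were among the kept cells, with 3117127 and 3626105 tag counts. An entry named unmapped, 18.2% of the MK and 10.1% of the Diff_MK tag counts, was set aside. A leading tag was assigned in 4560 MK and 4747 Diff_MK cells. Between the kept RNA libraries 9 cell barcodes occurred in both, 3 of them were assigned in both, and 0 had the same shared tag. Keratinocyte markers were detected at 1 CPM or more (UMIs of a gene per 1e6 UMIs) for 8 of 8 genes in cells with shared tags of both libraries, summing to 11149 CPM in MK and 20447 CPM in Diff_MK. Summed markers of fibroblasts, melanocytes, immune, endothelial and erythroid cells lay between 0.337 and 5.46 CPM. At most 1 gene of each of these lists reached 1 CPM.

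Shared tags marked a larger part of Diff_MK than of MK. They led 2250 of 4560 assigned MK cells, or 49.3% (47.9 to 50.8), and 4141 of 4747 assigned Diff_MK cells, or 87.2% (86.3 to 88.2). With tags 1 edit apart joined into groups, 21 shared groups were left, which led 31.3% and 34.3%. Joining was done within each library, and a group counted as shared only where the largest tag of each library matched. Groups with unlike largest tags dropped out, so these shares cannot be set against the 49.3% and 87.2%. Without joining, the remaining cells carried 818 tags of the MK library only and 48 of the Diff_MK library only. In MK the tags of that library only were small, with a median of 2 cells and a largest of 41. In Diff_MK they had a median of 3 cells and a largest of 160. Membership asks for a cell in each library and so favours large tags, and these sizes are a description.

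How evenly cells were spread over shared tags depended on the condition for a leading tag. The median shared tag led 14.5 MK cells and 19.5 Diff_MK cells, and the largest led 280 and 539 cells. The 10 largest held 47.0% of the shared-tag cells in MK and 60.6% in Diff_MK. The effective number of shared tags, the inverse of the chance that 2 random cells carry the same one, was 26.5 in MK and 18.5 in Diff_MK. Without the 2-times condition the order turned, with 16.4 in MK and 19.1 in Diff_MK. Tags with 1 to 3 cells numbered 17 in MK and 19 in Diff_MK.

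Individual tags moved far apart. With 20 or more cells over both libraries, 56 shared tags could be compared, and the ratio of their Diff_MK to MK share of assigned cells had a median of 1.52 and ran from 0.0291 to 162. The share was at least 2-fold higher in Diff_MK for 22 tags and at least 2-fold lower for 15, with 19 between. Over all 79 tags with 20 or more cells, shared or not and with a library at 0 set to 3 cells, 40.5% passed the 2-fold limit upward and 35.4% downward. For the shared tags these were 39.3% and 26.8%. The 79 tags include the 56 shared ones. The others, 13 of MK only and 10 of Diff_MK only, pass the limit by that setting. The shares of the 79 tags are therefore no independent background. When the share was taken among shared-tag cells alone, 32.1% were at least 2-fold higher and 33.9% lower, since shared tags as a whole had a ratio of 1.77 over MK. The counting interval of the ratio lay above 1 for 26 tags, below 1 for 17 and held 1 for 13. Just inside the limit of 20 cells, Tag42/Tag124 had 19 MK cells and 1 Diff_MK cell, and just outside it Tag48/Tag111 had 17 and 2.

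The 22 tags with higher shares, a direction set by how they were picked, together went from 8.44% of assigned MK cells to 46.7% of assigned Diff_MK cells. Their median size was 5 MK cells and 54.5 Diff_MK cells. The 15 tags with lower shares went from 11.8% to 2.95%, with medians of 34 and 5 cells. The 19 tags between held 25.6% and 35.2%. The 24 shared tags under 20 cells held 3.53% and 2.40%. The size of a shared tag in one library said little about its size in the other: over the 80 tags Spearman's rho of the cell numbers was 0.32, and over the 56 larger ones 0.22. Tags absent from a library are left out of both values. The 56 were picked by their cells summed over both libraries, which can lower rho. These values describe 2 libraries in which the tags share depth and background.

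The largest shared tag of both libraries was Tag1/Tag3, with no inserted base at its join. It led 280 MK cells, 6.14% (5.46 to 6.88), and 539 Diff_MK cells, 11.4% (10.5 to 12.3), a ratio of 1.85 (1.60 to 2.14). Its rise was close to the 1.77 of shared tags as a whole. Its MK assignments included 26.1% of cells led by fewer than 10 of its counts, against 10.4% in Diff_MK. Without the 2-times condition for a leading tag its ratio was 0.977.

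Tag6/Tag2, with the bases TT between arms, was the second largest shared tag of Diff_MK. It led 75 MK cells (1.64%, 1.30 to 2.06) and 498 Diff_MK cells (10.5%, 9.63 to 11.4), a ratio of 6.38 (5.0 to 8.24). Tag2/Tag5 has an insert of the same length, TC. It led 137 MK cells and 346 Diff_MK cells, a ratio of 2.43 (1.98 to 2.98), and its interval did not overlap that of Tag6/Tag2. Of its MK cells 21.9% had fewer than 10 of its counts, against 4.62% in Diff_MK, and without the 2-times condition its ratio was 1.33.

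Among the other large tags, Tag3+Tag711/Tag8 led 111 MK and 196 Diff_MK cells, a ratio of 1.70 (1.34 to 2.16). Tag5/Tag6 led 94 and 189 cells, a ratio of 1.93 (1.5 to 2.5). Both intervals held the 1.77 of all shared tags, and with tags 1 edit apart joined the group of Tag3+Tag711/Tag8 had a ratio of 0.634. Tag16/Tag11, a direct join of the arms, went from 38 to 157 cells, a ratio of 3.97 (2.77 to 5.82). Several large MK tags had lower or similar shares in Diff_MK. Tag14/Tag32 led 69 MK and 38 Diff_MK cells, a ratio of 0.529 (0.346 to 0.797). Tag35/Tag28 led 63 and 58 cells, a ratio of 0.884 (0.608 to 1.28). Tag9/Tag20 led 64 and 85 cells, a ratio of 1.28 (0.912 to 1.79). The intervals of the last 2 held an equal share. With a leading tag at 5 times the next, the ratio of Tag9/Tag20 was 0.675 and that of Tag35/Tag28 0.447, and by calls of a tag at 10% of a cell's tag counts, described with the tag pairs, that of Tag9/Tag20 was 0.949.

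The tags at the top of the ratio order were near the limit of detection in MK. Tag843/Tag9, the sixth in size in Diff_MK, led 1 MK cell and 169 Diff_MK cells, which is 0.0219% (0.000555 to 0.122) against 3.56% (3.05 to 4.13). Its ratio was 162 with an interval from 28.7 to 6450. Tag208/Tag13, which carries an insert of 4 guanines, led 5 MK and 153 Diff_MK cells (ratio 29.4, 12.3 to 91.8). Tag94/Tag14 led 5 and 125 cells (24.0, 10.0 to 75.3). By calls the ratio was 16.8 (8.35 to 39.7) for Tag208/Tag13 and 13.7 (6.76 to 32.4) for Tag94/Tag14. With a leading tag at 5 times the next, Tag208/Tag13 had a ratio of 55.5, and with tags 1 edit apart joined 14.7. Without the 2-times condition Tag94/Tag14 had 15.3. The ratios of both thus moved by more than 1.5 times with the assignment but stayed above 10.

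The same pattern held for smaller tags. Tag729/Tag4 led 1 MK and 51 Diff_MK cells, a ratio of 49.0 (8.41 to 1973). Tag474/Tag31 led 1 and 44 cells, a ratio of 42.3 (7.20 to 1707). Each of these tags was thus seen in MK by a single cell. Tag487/Tag33 led 1 and 36 cells, a ratio of 34.6 (5.82 to 1403). Tag302/Tag30, whose left arm had lost 8 bases, led 2 and 58 cells, a ratio of 27.9 (7.37 to 235). With a leading tag at 5 times the next, the ratio was 11.3 for Tag302/Tag30 and 25.5 for Tag729/Tag4. Tag729/Tag4 had 31.9 with a leading tag of 10 or more counts and 201 without the 2-times condition. The single MK cells were not borderline calls: the leading tag had 152 counts for Tag843, 315 for Tag729, 462 for Tag474 and 201 for Tag487, with 12, 17, 20 and 18 counts for the next tag. The single MK cell of Tag770/Tag38, a tag of 21 Diff_MK cells, had 16 counts against 4.

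At the other end, tags that were common in MK were nearly lost from Diff_MK. Tag20/Tag141, with 1 inserted guanine, led 33 MK cells and 1 Diff_MK cell, where it had 193 counts against 33 for the next tag. Its share was 34.4-fold lower in Diff_MK (5.75 to 1397). Tag42/Tag124, also with 1 inserted base, led 19 MK cells and 1 Diff_MK cell, a 19.8-fold lower share (3.14 to 822).

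Tag7/Tag52 was the eighth largest shared tag in MK. It led 67 MK cells (1.47%, 1.14 to 1.86) and 4 Diff_MK cells (0.0843%, 0.0230 to 0.216), a 17.4-fold lower share (6.50 to 65.9). By calls it was in 80 and 16 cells, a ratio of 0.162 (0.0886 to 0.280), and 12 of those 16 Diff_MK cells had no leading tag. Without the 2-times condition its ratio was 0.0891. Tag25/Tag118 led 40 and 3 cells, a 13.9-fold lower share (4.42 to 70.1). Tag7/Tag52 and Tag25/Tag118 had a larger MK size than Tag20/Tag141. Tags with few cells in both libraries fell under the cell limit for comparing shares. Whether the loss depended on size in MK therefore cannot be told from these tags. Tag33/Tag109 led 25 and 2 cells, a 13.0-fold lower share (3.24 to 113). Tag37/Tag102 led 24 and 3 cells, an 8.33-fold lower share (2.53 to 43.2). In each of these 6 tags the counting interval excluded an equal share. With a leading tag at 5 times the next, the ratio was 0.05001 for Tag20/Tag141, 0.0790 for Tag42/Tag124 and 0.0682 for Tag37/Tag102, and by calls it was 0.0451 for Tag25/Tag118, all on the same side of 1.

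Tag length divided the members into 3 classes. No tag of either list is longer than 56 bases, and 70 shared tags were 56 bases long in both lists. These led 34.6% (33.2 to 36.0) of assigned MK cells and 54.5% (53.0 to 55.9) of assigned Diff_MK cells, a ratio of 1.58 (1.48 to 1.68). Among the 48 with 20 or more cells, 19 had a share 2-fold higher or more and 15 a share 2-fold lower or more.

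A second class held 5 tags listed at 56 bases in MK but at 48 to 51 bases in Diff_MK. They were Tag6/Tag2, Tag2/Tag5, Tag3+Tag711/Tag8, Tag5/Tag6 and Tag4/Tag1, all among the 6 largest of MK. They went from 11.3% (10.4 to 12.2) to 27.1% (25.9 to 28.4), a ratio of 2.41 (2.17 to 2.67), with 2 tags at least 2-fold higher and 0 lower. This depends on the leading-tag rule. By calls their ratios, in the order named, were 6.79, 2.55, 1.59, 3.31 and 5.25. The shorter listing lets more than 1 MK tag match. The Diff_MK tag Tag8, at 49 bases, matched Tag3 (110 MK cells), Tag711 (1 cell) and Tag874 (0 cells), and Tag5 matched Tag2 (137 cells) and Tag873 (0 cells). A difference in share between length classes and the way the lists were written cannot be told apart for these 5.

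The third class held 5 tags under 56 bases in MK, among them Tag371/Tag151, which is listed at 54 bases in MK and 56 in Diff_MK. They led 3.51% (2.99 to 4.08) of MK and 5.65% (5.01 to 6.34) of Diff_MK assigned cells, a ratio of 1.61 (1.32 to 1.97). The largest of them in Diff_MK was Tag50/Tag15, a tag of 38 bases that had lost 16 bases of the left and 15 of the right arm. It led 31 MK and 136 Diff_MK cells, a ratio of 4.21 (2.84 to 6.44). Tag17/Tag7, at 50 bases, led 52 and 63 cells (1.16, 0.793 to 1.71), but by calls its ratio was 3.83 (2.83 to 5.26). The shortest shared tag, Tag214/Tag60 at 26 and 25 bases, led 11 and 8 cells (0.699, 0.244 to 1.91). Over cells, the mean listed length of shared tags was 55.4 bases in MK and 53.1 in Diff_MK. The 5 tags of the second class are listed shorter in Diff_MK than in MK. With tags identical in full only, the means were 55.4 and 55.0 bases.

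Shared tags differed in their joins from the other tags of the MK library. Bases that fit both arms were given to the left arm. Of the 81 shared MK tags 18 (22.2%, 13.7 to 32.8) joined the arms with no inserted base, against 74 of 781 readable tags (9.48%, 7.51 to 11.7) found in MK only. Inserts of 4 or more bases occurred in 11 of 81 shared tags (13.6%, 6.98 to 23.0) and in 328 of 781 others (42.0%, 38.5 to 45.5). Shared tags thus more often had no insert and less often a long one, and the intervals of both comparisons did not overlap. Tags of a list share a construct and are not independent samples. Shared tags were also larger, with a median of 14.5 MK cells against 2, and tags of equal size were not compared. No-insert tags with 1 or more bases fitting both arms were 16.05% of shared and 2.30% of other tags, and they led 36.5% of MK cells with shared tags.

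A pair of end combinations recurred among the shared MK tags. In 20 of 81 (24.7%, 15.8 to 35.5) the left arm had lost 4 bases and the right arm was whole, as in Tag6/Tag2 and Tag20/Tag141. In another 20 the left arm was whole and the right arm had lost 4, as in Tag3+Tag711/Tag8 and Tag25/Tag118. Among tags found in MK only these forms were 88 (11.3%) and 72 (9.22%) of 781. Inserted bases of shared tags were G or C in 97 of 149 positions, 65.1%, against 67.5% in the others. Losses of 5 or more bases from an arm were found in 14 of 81 shared tags (17.3%) and 40.7% of the others.

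Close neighbours were frequent among shared tags. A tag 1 edit away, a substitution, insertion or deletion of 1 base, existed in the same list for 75 of 81 shared MK tags (92.6%) and for 596 of 818 tags of MK only (72.9%). In Diff_MK it existed for 57 of 80 shared tags and 10 of 48 others. Whether a tag arose in more than 1 cell, or a read error moved counts between neighbours, was not tested.

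The median size change per tag differed by the form of the join. The 15 compared tags with 4 bases lost on the left and a whole right arm had a median ratio of 0.498, with 5 at least 2-fold higher and 8 lower. The 15 with a whole left arm and 4 bases lost on the right had a median of 1.18, with 3 higher and 4 lower. The 26 with other ends had a median of 4.09, with 14 higher and 3 lower. The median over all 56 was 1.52. Summed over cells of all shared tags, the first form went from 12.7% of assigned MK cells to 26.8% of assigned Diff_MK cells. The second went from 13.0% to 14.5% and other ends from 23.7% to 45.9%. The low median of the first form thus does not mean that it held fewer cells. Tags with no insert had a median of 1.51 over 14 tags, and tags with 4 or more inserted bases 0.624 over 8. By cells, these classes went from 20.6% to 31.5% and from 3.75% to 8.66%. These are descriptions over tags of 1 library per group.

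A cell could hold more than 1 called tag, and in Diff_MK this was frequent. A tag was called in a cell when it had 3 counts and made up 10% of the cell's tag counts, or more. By this rule 357 of 4893 MK cells with a call held 2 or more tags, and in 100 of these all called tags were shared ones. In Diff_MK 1390 of 6027 cells held 2 or more, and in 1240 all were shared. Such calls need not be at high counts. For Tag3 with Tag2, called together in 80 Diff_MK cells, the median counts were 5 and 4. Leading shared tags had a median of 183 counts in MK, with 13 for the next tag, and of 165 in Diff_MK, with 29 for the next.

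One pair was far more frequent than the rest. The Diff_MK tags named Tag4 and Tag1 were called together in 443 cells, which is 7.35% (6.70 to 8.04) of cells with a called tag. These were 72.7% of the 609 cells with Tag4 and 58.5% of the 757 cells with Tag1. In the 443 cells the median counts were 267 and 304, and the median ratio of one to the other was 0.917 (quartiles 0.790 to 1.04). Both tags were thus present at near equal amounts in the same cells. Their median of 15001 UMIs was near the 14996 of all Diff_MK cells with shared tags.

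Cells with only one of them had low counts, a median of 4 for Tag4 in 166 cells and of 5 for Tag1 in 314 cells. In MK the matching tags were Tag729, called in 1 cell, and Tag4, called in 117 cells. No MK cell had both, which allows up to 2.56% of the Tag4 cells, and the single Tag729 cell held 6 counts of Tag4. Across MK cells not led by Tag4/Tag1 the median count of that tag was also 6, so 6 counts are at the background of the library.

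Because neither tag reached 2 times the other, only 22 of the 443 cells were assigned to a leading tag. The assigned share of these tags was therefore far below their called share. Tag4/Tag1 led 97 MK and 59 Diff_MK cells, a ratio of 0.584 (0.415 to 0.816). By calls it was in 117 of MK and 757 of Diff_MK cells, 2.39% against 12.6%, a ratio of 5.25 (4.32 to 6.44). Of its 59 assigned Diff_MK cells 50.8% had fewer than 10 counts of it. For Tag729/Tag4 the ratio by calls was 494 (88.4 to 19560), and 35.3% of its 51 assigned cells had fewer than 10 counts.

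Background counts limit these calls. In Diff_MK cells led by other tags the median count of Tag4/Tag1 was 25, and 98.8% of such cells held at least 1 count of it. Tag729/Tag4 had a median of 18 there and Tag6/Tag2 of 23. In MK the corresponding medians were 6, 0 and 6. The medians of 267 and 304 in the paired cells were well above that background, while 140 of the 166 cells with Tag4 alone had fewer than 10 of its counts.

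A second pair was smaller. The Diff_MK tags Tag6 and Tag7, which are Tag5/Tag6 and Tag17/Tag7, were called together in 147 cells, 2.44% (2.06 to 2.86) of cells with a call. Their median counts in those cells were 278 and 288. Here 13 of the cells were assigned. In MK the corresponding tags were called in 107 and 52 cells and in 0 cells together, which allows up to 2.80% and 5.77% of each. Every MK cell with these tags thus had one without the other, and by calls Tag5/Tag6 had a ratio of 3.31 (2.67 to 4.13) and Tag17/Tag7 of 3.83 (2.83 to 5.26).

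Unlike the first pair, one tag of the second was also common alone at high counts. Tag6 was called without Tag7 in 289 cells, with a median of 67 counts. The next most frequent pair in Diff_MK, Tag3 with Tag2, was found in 80 cells with medians of 5 and 4 counts, which is below the background of those tags. Over 42 shared tags the median share of called Diff_MK cells left without a leading tag was 11.8%. It was 85.4% for Tag729/Tag4, 77.7% for Tag4/Tag1, 71.4% for Tag17/Tag7 and 49.1% for Tag5/Tag6. In MK the median was 14.9% over 38 tags.

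The transcriptome was read within tags, so that cells of one tag were compared with cells of the same tag. Tags with 20 or more cells numbered 33 in MK and 40 in Diff_MK, and 21 met this in both. Over all cells with shared tags, 7723 genes reached 10 CPM in a library. Of these 1.79% rose 2-fold or more in Diff_MK and 0.634% fell as far. Gene lists are given as summed CPM, and their change as the ratio of Diff_MK to MK within a tag. Fewer cells in a state and less RNA per cell cannot be told apart in these sums.

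The basal, suprabasal and granular lists were each higher in Diff_MK in 21 of 21 tags. The basal list (9 genes, among them Krt14, Krt5 and the integrin subunit Itgb1) had a median ratio of 1.91 and a range of 1.13 to 2.39. The suprabasal list (8 genes, with Ly6d, Krtdap and Sbsn) had a median of 2.46 (1.07 to 4.52), and the granular and envelope list (11 genes, with the cornified envelope precursor Sprr1b) of 2.11 (1.37 to 4.68). The lists did not move as single blocks. Itgb1 was higher in 1 of 21 tags with a median ratio of 0.665, and Sbsn in 10 of 21 with 0.981. The change was not particular to shared tags. In cells of tags of 1 library only, the basal sum was 9011 CPM in MK and 16712 CPM in Diff_MK. The suprabasal sums there were 1394 and 3350 CPM, and the granular sums 1310 and 2921 CPM. The 21 tags come from 1 pair of libraries and are no replicates.

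Of the genes named here, Krt19, a simple epithelial keratin, was the one at least 2-fold higher in 21 of 21 tags, with a median ratio of 4.57 (2.32 to 6.44). In Tag1/Tag3 Krt19 was 242 CPM (228 to 257) in MK and 1447 CPM (1421 to 1473) in Diff_MK. In Tag6/Tag2 Krt19 was 265 CPM (235 to 297) and 1209 CPM (1185 to 1233). Krt19 ranged from 219 to 379 CPM over the MK tags and from 509.6 to 2557 CPM over the Diff_MK tags, so that the libraries did not overlap. Ly6d, a surface protein of differentiating keratinocytes, had a larger median ratio of 5.76 but a wider range (1.53 to 28.4), with 18 of 21 tags at least 2-fold higher. Krt8, a simple keratin too, went both ways, higher in 8 of 21 tags. In cells of tags of 1 library only, Krt19 was 256 CPM in MK and 1114 CPM in Diff_MK.

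Cell cycle genes were lower. The S phase list (15 genes, with the replication factors Pcna and Mcm3 and the ribonucleotide reductase subunit Rrm2) was higher in Diff_MK in 0 of 21 tags, with a median ratio of 0.583 (0.469 to 0.912). The G2/M list (15 genes, with Top2a, Ube2c and Cenpf) was higher in 2 of 21, with a median of 0.724. CDK inhibitors (5 genes, with Cdkn1a) were higher in 21 of 21 with a median of 1.46 (1.05 to 1.99), none reaching 2-fold. Cells of tags of 1 library only had S phase sums of 1531 CPM in MK and 933 CPM in Diff_MK. Their G2/M sums were 2373 and 1941 CPM, and their CDK inhibitor sums 242 and 353 CPM.

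Chemokine genes, signals that attract neutrophils among other cells, were also lower. Their sum (6 genes, with Cxcl5, Cxcl3 and Ppbp) was higher in 0 of 21 tags and had a median ratio of 0.523 (0.356 to 0.947). Cxcl3 had the lowest median of these 3, a ratio of 0.244, with 17 of 21 tags at least 2-fold lower. In cells of tags of 1 library only, the chemokine sum was 3019 CPM in MK and 1634 CPM in Diff_MK. Median UMIs per cell had a median ratio of 0.972 over the 21 tags (0.849 to 1.14), and the mitochondrial share was higher in 20 of 21 with a median ratio of 1.13. The part of these in the results was not tested.

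For the lists other than S phase, tags spread over wider ranges of CPM in Diff_MK than in MK. The basal sum ran from 6464 to 11120 CPM over the 33 MK tags and from 6459 to 26264 CPM over the 40 Diff_MK tags. The suprabasal sum ran from 708 to 2260 CPM and from 1032 to 6171 CPM. Krt17, a stress keratin, ran from 150.4 to 677 CPM in MK and from 17.2 (Tag302/Tag30) to 1536 CPM (Tag16/Tag11) in Diff_MK. The G2/M sum ran from 1818 to 2842 CPM in MK and from 789 to 3338 CPM in Diff_MK. Chemokines ran from 2511 to 3666 CPM and from 690 to 3487 CPM. The S phase range was narrower in CPM in Diff_MK but also lower, from 1244 to 2113 CPM in MK and from 678 to 1347 CPM in Diff_MK. CDK inhibitors ran from 172 to 370.0 CPM and from 259 to 492 CPM.

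Tag474/Tag31, one of the tags with 1 MK cell, stood at the high end in Diff_MK. Its 44 cells had the highest basal (26264 CPM), suprabasal (6171 CPM), granular (5119 CPM) and stress keratin (7608 CPM) sums of the 40 tags. Its Krt14 was 20092 CPM (19765 to 20423), against 15622 CPM (15450 to 15795) for the next tag, Tag50/Tag15, and its Krt16 was 2181 CPM (2074 to 2292). Its Pcna was the lowest of the 40, at 60.1 CPM (43.5 to 80.9).

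Tag30/Tag17, with 26 MK and 61 Diff_MK cells, changed least in its basal genes among the 21 tags. Its basal sum was 8711 CPM in MK and 9831 CPM in Diff_MK, the lowest ratio of the 21 tags. Cxcl3 was 594 CPM (521 to 675) in MK and 705 CPM (652 to 760) in Diff_MK, the highest of the 40 tags, and Pcna was 256 CPM (209 to 310) and 301 CPM (267 to 338). Krt19 still rose in it, from 236 CPM (190.5 to 288) to 603 CPM (554 to 654). Tag843/Tag9, which went from 1 to 169 cells, likewise had high Pcna, at 275 CPM (255 to 296), and a basal sum of 12124 CPM.

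The level of a list in a tag was weakly related to that tag's change in size. Over the tags with 20 or more cells, Spearman's rho between the log ratio of shares and the S phase sum was -0.02 in MK (33 tags) and 0.02 in Diff_MK (40 tags). Over the 9 lists it ran from -0.17 for chemokines to 0.33 for the granular list in MK, and from -0.18 for simple keratins to 0.23 for the granular list in Diff_MK. The order of tags in MK carried over to Diff_MK at most in part. Over the 21 tags rho between the MK and Diff_MK level ran from -0.29 for CDK inhibitors to 0.41 for chemokines. For the single genes named it ran from -0.44 for Cdkn1a to 0.50 for Krt8. Tags of a library share its depth and background, and these values are descriptions.

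Cells with both tags of a pair were also set beside cells with only one in RNA. The 443 cells with Tag4 and Tag1 had 152 CPM (143 to 161) of Krtdap, a suprabasal gene, and a suprabasal sum of 1422 CPM (1394 to 1450), against 3358 CPM in all Diff_MK cells with shared tags. Their basal sum was 13276 CPM (13189 to 13362). Cells with Tag4 as the only called tag had few tag counts and fewer UMIs, a median of 11670, so they make no clean comparison. At 100 or more counts, 15 cells with Tag4 alone had a suprabasal sum of 1746 CPM (1560 to 1948). The 16 with Tag1 alone had 1127 CPM (1005 to 1259), so the paired cells lay between them. Their basal sums, 11383 and 10664 CPM, were lower than in the paired cells, and Krtdap, 234 and 376 CPM, was higher. These are few cells.

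For the second pair, cells with Tag6 alone at high counts were more numerous. The 147 cells with Tag6 and Tag7 had 272 CPM (251 to 293) of Krtdap and 1571 CPM (1522 to 1622) of Krt5. The 188 cells with Tag6 as the only called tag had 960 CPM (925 to 996) and 3420 CPM (3354 to 3488). Median UMIs were 15391 and 15195. Krt8 was 215 CPM (197 to 235) in the paired cells and 15.9 CPM (11.7 to 21.1) in the cells with Tag6 alone. Of all 289 cells with Tag6 and without Tag7, 98 had fewer than 10 counts of Tag6, and their median total was 188 tag counts against 1363 in the paired cells. The 113 cells with Tag6 alone at 100 or more counts, a limit chosen after seeing the data, had 837 CPM (798 to 877) of Krtdap, 2417 CPM (2351 to 2485) of Krt5 and 19.7 CPM (14.1 to 26.7) of Krt8, at a median of 18490 UMIs. The 3 genes thus differed from the paired cells by more than counting error at both limits, with a smaller difference in Krt5 at the higher one. Other suprabasal genes did not follow Krtdap. Sbsn was 553 CPM in the paired cells and 420 CPM in the 113 cells, and Ly6d was 1280 and 767 CPM. The suprabasal sum was 2325 CPM in the paired cells, 3996 CPM in the 188 cells and 2564 CPM in the 113 cells. The part of tag depth in this was not tested.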

How the data were processed

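Single-cell RNA (10x 3′ v3) and tag libraries (CITE-seq-type protocol) of the groups MK and Diff_MK, 4 samples in all, were used, per the labels' protocols. The authors deposited RNA UMI counts per gene and tag counts per cell barcode, both whole numbers and not normalized. Cell Ranger 6.1.2 and mm10 are named in the submitters' processing notes. Whether tag counts are UMIs, and how the tag lists were made, is not given in the sources used here.

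Cells were joined on the first 16 bases of the barcode. Shares carry Clopper-Pearson intervals, ratios conditional binomial and CPM sums Poisson ones (Python 3.11.15, numpy 2.4.6, pandas 2.3.3, scipy 1.17.1, edlib 1.3.9.post1), at 95%. Arms were derived from the tags themselves. Doublets were not removed. The scripts were tested on simulated data. Named tags are the 10 largest in each library, the 6 highest and 6 lowest ratios at 20 or more cells, the shortest, and those of unequal length or with several matches. Named genes are at most 3 per list with the highest CPM. Tag48/Tag111, Tag770/Tag38, Tag30/Tag17, Tag16/Tag11 and the tag pairs were chosen after their values were seen. The members and lists were chosen with earlier results of these data known.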

Additional observations from a re-analysis of the deposited data

How the results depend on the processing

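Without the 2-times condition, shared tags led 56.1% of MK and 88.8% of Diff_MK assigned cells, and the effective numbers turned in order, to 16.4 in MK and 19.1 in Diff_MK. With a leading tag at 5 times the next they led 45.7% in MK. With identical tags only the shares were 37.8% and 59.9%, and the mean length in Diff_MK was 55.0 bases. Joining tags 1 edit apart left 21 shared groups, which led 31.3% and 34.3%. Of these groups 8 were at least 2-fold higher and 3 lower, and the effective numbers were 6.89 and 6.51. Groups whose largest tags did not match between libraries dropped out, so these values do not cover the same tags. With calls in place of leading tags, an alternative chosen after seeing the data, the shares were 52.3% and 90.2%. At 10 or more cells 23 tags were at least 2-fold lower. At 50 or more cells 12 were higher and 6 lower. Among the tags named, some single ratios turned. Tag1/Tag3 had 0.977 without the 2-times condition. Tag4/Tag1 had 2.57 without it and 5.25 by calls. Tag9/Tag20 had 0.675 at 5 times the next and 0.949 by calls. With tags joined Tag3+Tag711/Tag8 had 0.634, but Diff_MK Tag8, listed at 49 bases, could not join neighbours listed at 56. By calls 4 of the 56 compared tags were on the other side of 1 and 14 moved by over 1.5 times. The cause was not tested. The filter on RNA cells removed no cell with tags. No paired analysis was possible because each group has 1 library. Tag sizes are limited by cell numbers: a tag led by 1 cell in a library has a ratio with a wide interval.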
